A study of Mus musculus with 12 samples.

Results

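Spp1, which encodes the secreted protein osteopontin, was followed with 3 receptor genes, Itgav, Itgb5 and Cd44, in microglia sorted from the central nervous system (CNS) of adult and aged mice. The 4 genes were chosen by name, as ligand and receptors, from the 770 genes of a NanoString nCounter neuroinflammation panel, and all 4 were on it. They were chosen with earlier results of these data known. Their mouse gene identifiers in RefSeq are 20750 for Spp1, 16410 for Itgav, 16419 for Itgb5 and 12505 for Cd44. The nCounter counts single RNA molecules that have bound a color-coded probe, without amplification.

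The labels give C57B6 mice without treatment and name no Cre or Ulk1 genotype. The study describes its experimental mice as C57BL/6 hemizygotes for a tamoxifen-inducible Cre under the Cx3cr1 promoter, with tamoxifen given shortly before in adult and long before in aged mice. Age and time since tamoxifen, where it was given, therefore cannot be told apart. Each sample pooled the CNS of a male and a female. Microglia were enriched with CD11b beads, fixed, permeabilized and sorted as YFP+, CD45 intermediate and Ly6G- cells, where YFP reports activity of the Cx3cr1 promoter. Cells of aged mice, over 80 weeks old, were further split by their phosphorylated ERK1/2 (P-ERK1/2), the active form of a kinase pair of the MAP kinase pathway, into P-ERK1/2 High (samples 2, 5, 7 and 8) and P-ERK1/2 Low (samples 3, 6, 9 and 12). Cells of adult mice, 12 to 20 weeks old, were not split, and 3 adult samples were used (samples 1, 4 and 10). Adult is taken from the sample titles, since 1 further entry of the labels, the sample type, reads aged for the adult samples too, and the methods put the aged mice at a somewhat higher age than the labels. A further adult sample, number 11, is labelled as excluded for its quality and is given beside the others. The labels do not say which samples of the aged populations came from the same mice. Each sample is a pool of sorted cells, so fewer cells that make a transcript and less of it per cell cannot be told apart.

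Osteopontin is a phosphorylated glycoprotein that is both secreted as a cytokine and laid down in matrix. Through an arginine-glycine-aspartate motif it binds integrins, receptors made of an α and a β chain, among them αvβ5, whose chains are encoded by Itgav and Itgb5. CD44, a receptor best known for binding hyaluronan, has been described as a further osteopontin receptor. In the brain, osteopontin is made by microglia and macrophages around lesions and plaques and in white matter during development. The αv chain also pairs with other β chains, whereas the β5 chain pairs with αv.

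Promoters (the stretch before the transcription start) are shown for the ligand and for both chains of αvβ5, because Spp1 and Itgav were both called higher in 1 aged population and Itgb5 was not. Each run is the 250 bases before the RefSeq start site, read 5′ to 3′ along the gene in build GRCm38.p6, with matches to the searched motifs in capitals. The Spp1 run is the first of its 2 promoter entries and lies at chr5:104434861-104435110 on the plus strand, the Itgav run at chr2:83724147-83724396 on the plus strand and the Itgb5 run at chr16:33829415-33829664 on the plus strand.
Spp1: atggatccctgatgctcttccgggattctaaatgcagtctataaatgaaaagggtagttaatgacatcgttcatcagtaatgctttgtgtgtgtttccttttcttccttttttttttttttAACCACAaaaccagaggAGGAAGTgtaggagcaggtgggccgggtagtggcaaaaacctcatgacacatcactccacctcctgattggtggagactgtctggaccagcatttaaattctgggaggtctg
Itgav: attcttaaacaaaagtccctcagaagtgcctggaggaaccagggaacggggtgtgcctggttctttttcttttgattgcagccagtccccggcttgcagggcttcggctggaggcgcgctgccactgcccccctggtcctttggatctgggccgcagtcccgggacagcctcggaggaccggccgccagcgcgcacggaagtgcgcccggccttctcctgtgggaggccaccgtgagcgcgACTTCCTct
Itgb5: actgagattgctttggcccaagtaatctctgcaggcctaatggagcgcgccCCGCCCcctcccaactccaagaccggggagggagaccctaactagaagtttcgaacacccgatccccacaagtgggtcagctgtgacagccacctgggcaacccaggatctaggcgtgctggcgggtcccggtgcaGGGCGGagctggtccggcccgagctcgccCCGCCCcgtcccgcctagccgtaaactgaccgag
The motifs were searched on both strands and were AGGAAGT (Ets), AACCACA (Runx), GGGCGG (GC box) and TGANTCA (AP-1), where N is any base. Spp1 held 1 Runx match starting 129 bases and 1 Ets match starting 112 bases before the start site, both on the plus strand. Itgav held 1 Ets match, on the minus strand, 9 bases before the start site. Itgb5 held 3 GC boxes and no Ets or Runx match. Of all 32851 mouse promoter windows of this length, 7.7% held the Ets motif, 4.4% the Runx motif, 32.7% a GC box and 6.7% the AP-1 motif. The GC content was 43.6% in the Spp1 run, 64.4% in Itgav and 65.2% in Itgb5. A match is a description of letters, and binding at these sites was not measured.

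Values are given as the authors' normalized signal, for which every count of a sample was multiplied by 1 factor that brings 13 housekeeping genes to the same geometric mean. The P-ERK1/2 High samples held 650965 to 1539936 counts in total, the P-ERK1/2 Low samples 123798 to 157209, the adult samples 137980 to 326575 and sample 11 1464449. Background was set per sample at the mean plus 2 SD of 8 negative control probes, and 589 to 673 genes of the P-ERK1/2 High samples, 410 to 484 of the P-ERK1/2 Low samples and 417 to 560 of the adult samples were above it. The summed signal of 8 microglia markers was 3487 to 3801 in adult samples, 3371 to 3692 with P-ERK1/2 Low and 2851 to 3544 with P-ERK1/2 High, and of these markers all 8 were above background in every P-ERK1/2 High sample, while P2ry12 and Gpr34 were above it in no P-ERK1/2 Low sample. Groups were compared with limma on log2(signal + 1), and a gene was called changed if its p was under 0.01 and its fold change beyond 1 on the log2 scale, the limits given in the study. Samples were labelled as separate samples, and p-values measure the spread between these pools.

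Spp1 was far above background in every sample and, on the deposited scale, was several times higher in the P-ERK1/2 High microglia than in either other group. Its signal in P-ERK1/2 High was 75182 in sample 2, 93890 in sample 5, 113517 in sample 7 and 97535 in sample 8. In P-ERK1/2 Low it was 23365 in sample 3, 23044 in sample 6, 20623 in sample 9 and 30143 in sample 12. In the adult samples it was 21573 in sample 1, 39408 in sample 4 and 25330 in sample 10. Every P-ERK1/2 High sample thus lay above every P-ERK1/2 Low and adult sample, while the P-ERK1/2 Low values fell within or just under the adult range. The means were 95031 ± 15740 (SD, n = 4) in P-ERK1/2 High, 24294 ± 4087 (SD, n = 4) in P-ERK1/2 Low and 28770 ± 9402 (SD, n = 3) in adult microglia.

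Spp1 was among the 3 strongest signals of every sample. It took up 10.5 ± 3.37% (SD, n = 4) of the whole panel signal in P-ERK1/2 High, 5.32 ± 0.464% (SD, n = 4) in P-ERK1/2 Low and 8.18 ± 1.92% (SD, n = 3) in adult microglia. As shares the groups were closer than as signals, and P-ERK1/2 High, from 8.53% to 15.5%, overlapped with adult, from 6.74% to 10.4%, but not with P-ERK1/2 Low, from 4.90% to 5.94%. The 15.5% was sample 7, and the other P-ERK1/2 High samples had at most 9.42%.

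**Figure D1:**
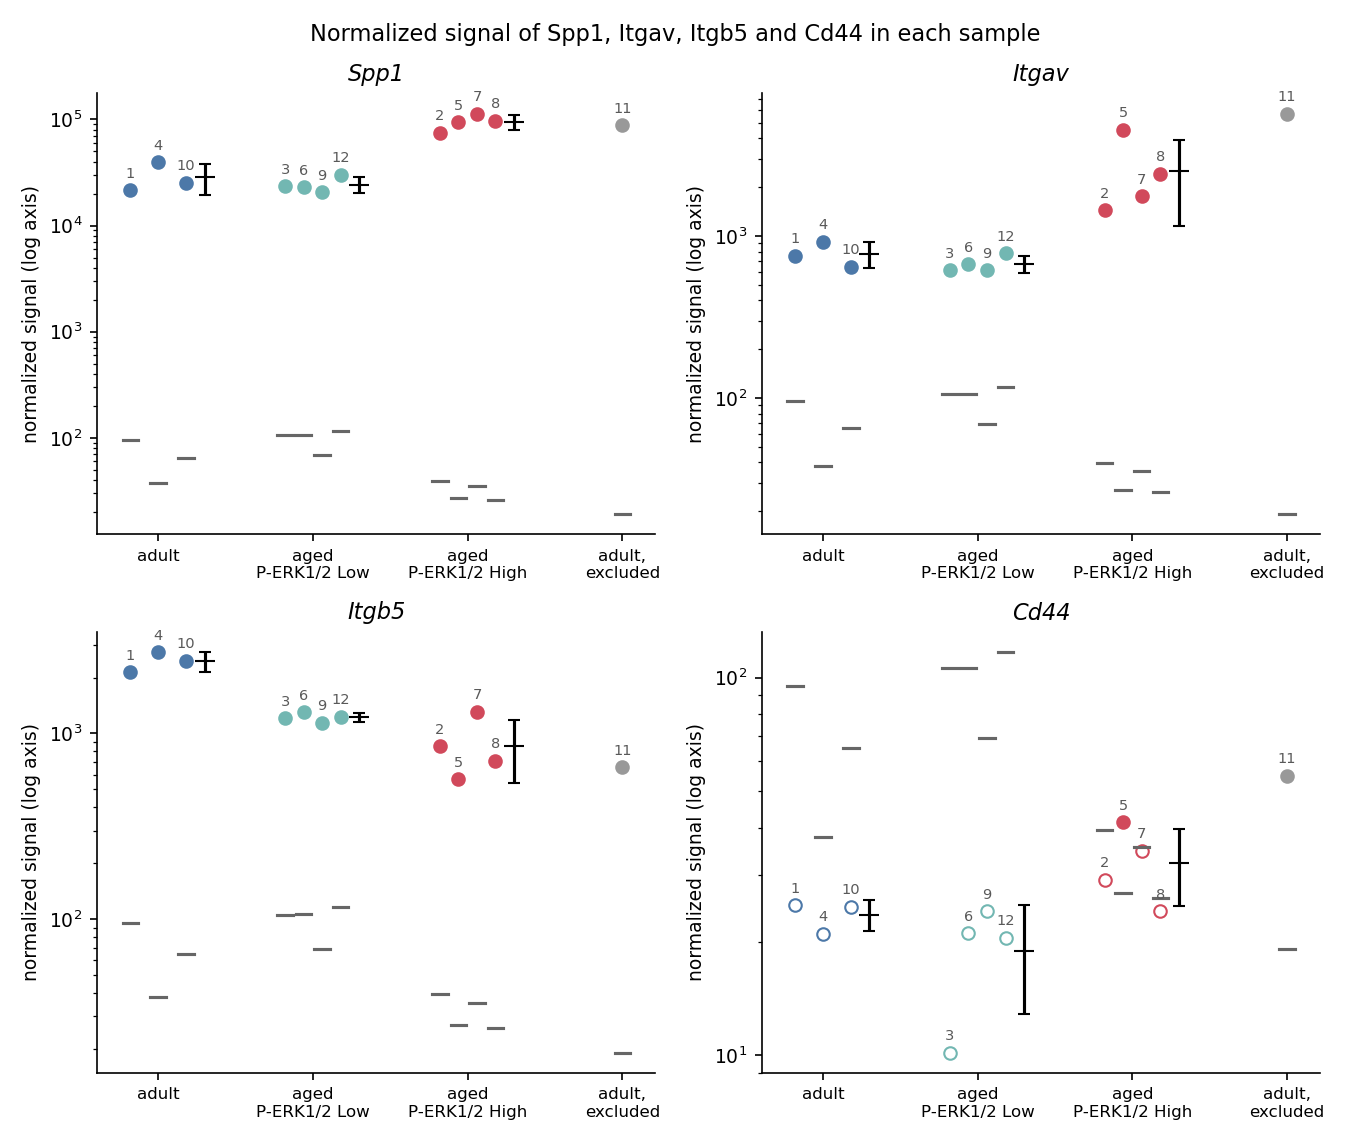
Normalized signal (log axis) of Spp1, Itgav, Itgb5 and Cd44 in each sample, numbered as in the text, by group, with the mean and SD in black beside each group of more than 1 sample. Short dark lines mark the background of each sample and open circles are values below it. Spp1 and Itgav stand higher in all 4 P-ERK1/2 High samples, Itgb5 is highest in the 3 adult samples, and Cd44 lies below background in 10 of the 11 samples that were kept.

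Itgav, the αv chain, followed Spp1 between the groups. Its signal in P-ERK1/2 High was 1442 in sample 2, 4519 in sample 5, 1754 in sample 7 and 2411 in sample 8. The P-ERK1/2 Low signal was 613.3 in sample 3, 666.1 in sample 6, 612.6 in sample 9 and 783.5 in sample 12. In the adult samples it was 755.5 in sample 1, 920 in sample 4 and 642.4 in sample 10. The P-ERK1/2 High samples were all above the others and were spread 3.13-fold among themselves, with sample 5 far above the rest, whereas the P-ERK1/2 Low samples were spread 1.28-fold and the adult samples 1.43-fold. The means were 2532 ± 1385 (SD, n = 4) in P-ERK1/2 High, 669 ± 80.4 (SD, n = 4) in P-ERK1/2 Low and 773 ± 140 (SD, n = 3) in adult microglia.

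Itgb5, the β5 chain, had a different order, highest in adult microglia and lower in both aged populations. Its signal in the adult samples was 2140 in sample 1, 2737 in sample 4 and 2458 in sample 10. In P-ERK1/2 Low it was 1206 in sample 3, 1304 in sample 6, 1140 in sample 9 and 1227 in sample 12. In P-ERK1/2 High it was 856 in sample 2, 566 in sample 5, 1308 in sample 7 and 715 in sample 8. All aged samples lay below all adult samples, and between the aged populations the values overlapped, because sample 7 reached the P-ERK1/2 Low level. The means were 2445 ± 299 (SD, n = 3) in adult microglia, 1219 ± 67.8 (SD, n = 4) in P-ERK1/2 Low and 861 ± 321 (SD, n = 4) in P-ERK1/2 High.

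Cd44 was hardly detected. Its counts in P-ERK1/2 High were 24 in sample 2, 58 in sample 5, 31 in sample 7 and 19 in sample 8, against a background of 20.6 to 37.7 counts. They were 3, 6, 9 and 5 in P-ERK1/2 Low (samples 3, 6, 9 and 12) and 11, 18 and 10 in adult microglia (samples 1, 4 and 10). Sample 5 alone exceeded its background among the kept samples. A difference in Cd44 between the groups was not detectable at this depth, so no fold change is given for it. Any level in the P-ERK1/2 Low samples would have to exceed a background of 69.2 to 117 in units of signal to be seen, above the 24.1 to 41.5 measured in P-ERK1/2 High.

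The first comparison asked how aged microglia with high ERK1/2 phosphorylation differ from aged microglia with low phosphorylation. Spp1 and Itgav were called higher in P-ERK1/2 High, and Itgb5 was not called. In this comparison 37.8% of the 770 genes were called, 28.2% of them higher and 9.61% lower as shares of all genes, so that calls were common. The groups did not overlap for 49.4% of the genes, 31.3% in the higher and 18.1% in the lower direction. Spp1 rose by 1.97 on the log2 scale (SE 0.22, 95% interval 1.48 to 2.45, limma adjusted p = 2.8e-05), a 3.91-fold difference, though it stood at -0.10 after quantile normalization. Itgav rose by 1.78 (SE 0.32, 95% interval 1.07 to 2.49, limma adjusted p = 0.00085), a 3.44-fold difference. Both calls were lost when each sample was scaled to its sum over all genes (0.94 and 0.76). The same held with background subtracted and housekeeping factors computed again (0.59 and 0.61). Spp1 and Itgav ranked 85 and 100 of the 770 genes by increase, and the median gene stood at 0.26. Itgb5 differed by -0.57 (SE 0.26, 95% interval -1.15 to 0.01, limma adjusted p = 0.088), an interval that holds both no change and a fall past the fold limit.

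**Figure D2:**
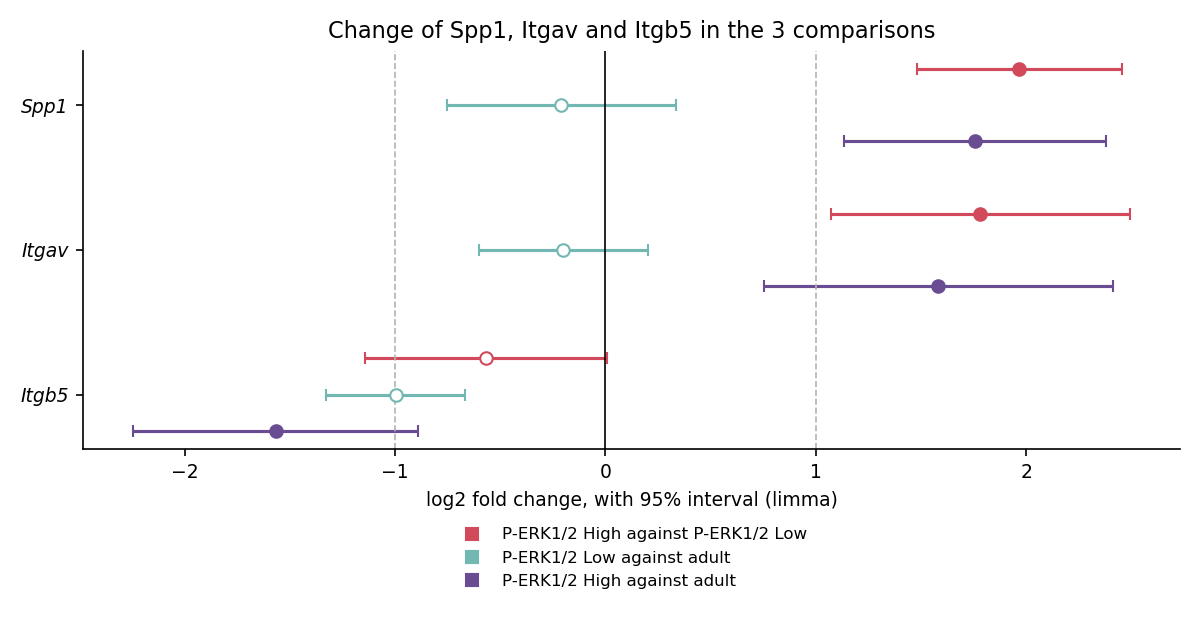
Log2 fold change of Spp1, Itgav and Itgb5 in the 3 comparisons, with the 95% interval from limma. Filled points were called changed, open points were not, and dashed lines mark the fold limit of the call at -1 and 1. Spp1 and Itgav lie from 1.58 to 1.97 in both comparisons of P-ERK1/2 High, and Itgb5 is negative in all 3.

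The second comparison asked what differs between aged P-ERK1/2 Low microglia and adult microglia. Spp1 and Itgav were not called, with values of -0.21 (SE 0.24, limma adjusted p = 0.55) and -0.20 (SE 0.17, limma adjusted p = 0.43). The 95% interval was -0.76 to 0.34 for Spp1 and -0.60 to 0.20 for Itgav, so that an increase past the fold limit was outside both. Itgb5 differed by -0.998 (SE 0.14, 95% interval -1.33 to -0.67, limma adjusted p = 0.0026), a ratio of 0.501. Its p-value passed the limit, its fold change stopped just short of it, and it was therefore not counted as called. Leaving out adult sample 1, P-ERK1/2 Low sample 6 or P-ERK1/2 Low sample 12 took it past the fold limit, at -1.09, -1.03 and -1.001. Of all genes 10.8% were called in this comparison, 8.05% higher and 2.73% lower. The groups did not overlap for 36.5% of the genes, 26.1% higher and 10.4% lower, the latter including Itgb5. By size of decrease Itgb5 ranked 33 of 770. The calls were 62 higher and 21 lower as deposited, 51 and 27 under median-of-ratios scaling, 24 and 59 when scaled to the sum, 52 and 35 after quantile normalization, 8 and 218 under the positive controls alone, 47 and 42 with background subtracted under the authors' factors and 110 and 62 with factors computed again. Itgb5 was negative in all of these settings, from -1.81 to -0.47, while Spp1 and Itgav turned to 0.40 and 0.31 in the last.

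The third comparison, P-ERK1/2 High against adult microglia, shares its samples with the other comparisons. Spp1 rose by 1.76 (SE 0.28, limma adjusted p = 0.0006), but stood at -0.72 after quantile normalization. Itgav rose by 1.58 (SE 0.37, limma adjusted p = 0.006) and Itgb5 fell by 1.57 (SE 0.31, limma adjusted p = 0.002). All 3 were called, as were 36.9% of the genes, 29.2% higher and 7.66% lower. The calls of Spp1 and Itgav were lost when scaled to the sum (0.34 and 0.17) and with background subtracted and factors computed again (0.99 and 0.92), that of Itgav also after quantile normalization (0.49), and that of Itgb5 under the positive controls alone (-0.39). By size of decrease Itgb5 ranked 14 of 770. None of the 3 overlapped between the groups, as held for 50.3% of all genes, 35.1% in the higher and 15.2% in the lower direction. The calls were 225 higher and 59 lower as deposited, 164 and 114 under median-of-ratios scaling, 340 and 8 with the 6 most stable housekeeping genes, 40 and 362 when scaled to the sum, 142 and 139 after quantile normalization, 420 and 1 under the positive controls alone, 232 and 14 with background subtracted under the authors' factors and 191 and 87 with factors computed again.

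These sizes depend on the scaling. Total counts differed between the aged populations, and the housekeeping genes did not move as a block. For the aged populations, P-ERK1/2 High over P-ERK1/2 Low, the median of all genes was 0.26 as deposited, and the calls were 217 higher and 74 lower. The calls were 310 higher and 8 lower with the 6 most stable housekeeping genes, 59 and 311 when each sample was scaled to its sum, 146 and 142 after quantile normalization and 659 and 0 when the positive control probes alone set the scale. With background subtracted they were 281 higher and 116 lower under the authors' factors and 163 and 257 with housekeeping factors computed again. Under median-of-ratios scaling, where the median of all genes was 0.00 and the calls were 177 higher and 121 lower, Spp1 (1.71) and Itgav (1.53) were called and Itgb5 (-0.83) was not. Spp1 was not called when scaled to the sum (0.94), nor with background subtracted and housekeeping factors computed again (0.59), and after quantile normalization it stood at -0.10. Quantile normalization gives signals of the same rank the same value in every sample. Spp1 ranked 2 in every P-ERK1/2 Low sample, 2 or 3 in the P-ERK1/2 High samples and 1 in the kept adult samples. Itgav was called under quantile normalization (1.12) and not when scaled to the sum (0.76) or with background subtracted and factors computed again (0.61). Itgb5 was called lower in those last settings (-1.60 and -1.88) and turned to 1.42 under the positive controls alone.

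**Figure D3:**
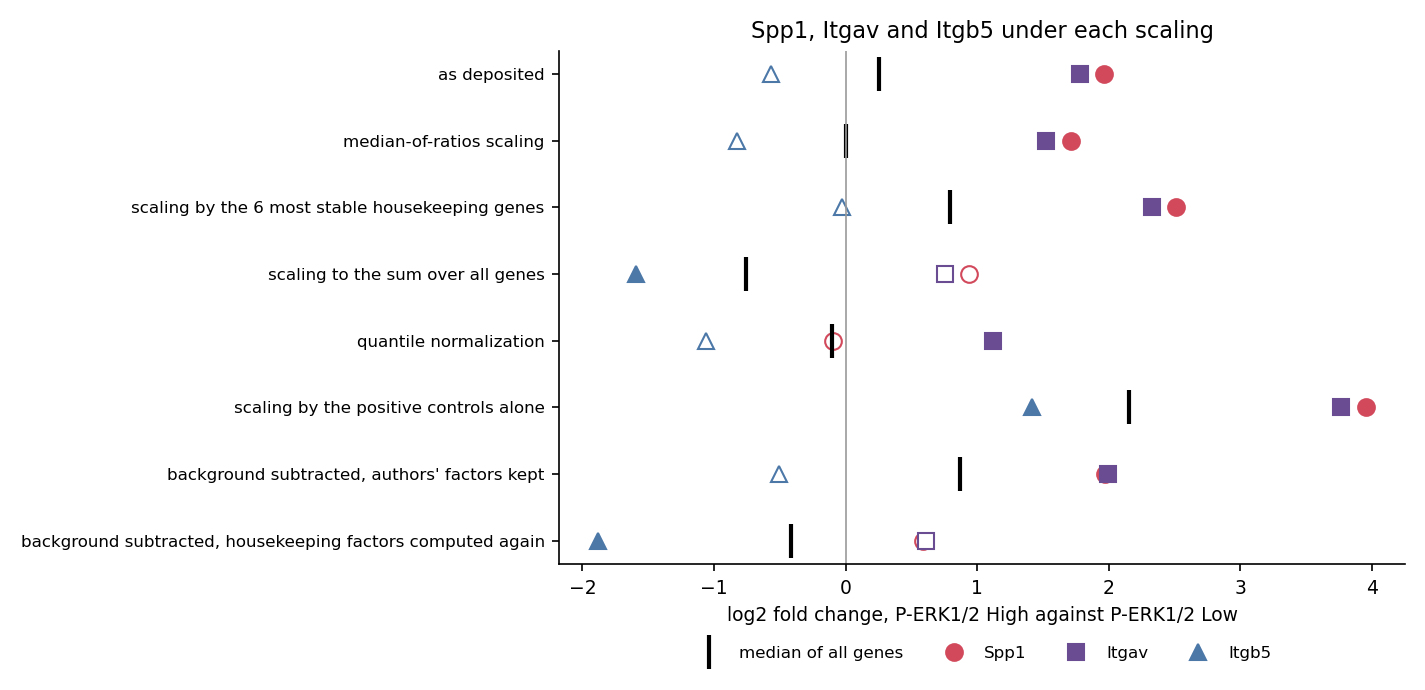
Log2 fold change of Spp1, Itgav and Itgb5 between the aged populations, P-ERK1/2 High over P-ERK1/2 Low, under each scaling, with the median of all 770 genes as a black bar. Filled symbols were called changed. Spp1 and Itgav lie at or to the right of the median gene in all 8 rows and Itgb5 to its left, while all of them shift with the scale.

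Against the housekeeping genes one by one, the ratio of Spp1 to the gene was higher in every P-ERK1/2 High sample than in every P-ERK1/2 Low sample for 12 of 13 genes. The exception was Supt7l, which itself rose by 3.34 on the log2 scale (limma adjusted p = 2.1e-06) and against which Spp1 was lower. For Itgav the count was 11 higher and 1 lower, again Supt7l, with overlap for Mto1. For Itgb5 it was 1 higher, against Lars, and 2 lower, and its mean ratio was higher for 4 of the 13. Between P-ERK1/2 Low and adult microglia the mean ratio of Itgb5 was lower for all 13 genes, without overlap for 11, and between P-ERK1/2 High and adult it was lower for all 13, without overlap for 10. Between the aged populations the housekeeping genes had a median of -0.52, against 0.26 over all genes. How many of all genes would give such counts was not computed.

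A ratio of 2 genes within a sample does not depend on any scaling factor of that sample, and was used to compare the genes with each other. The log2 ratio of Spp1 to Itgb5 in P-ERK1/2 High was 6.46 in sample 2, 7.37 in sample 5, 6.44 in sample 7 and 7.09 in sample 8. The P-ERK1/2 Low ratio was 4.28 in sample 3, 4.14 in sample 6, 4.18 in sample 9 and 4.62 in sample 12. In adult microglia it was 3.33 in sample 1, 3.85 in sample 4 and 3.37 in sample 10. The 3 groups were fully separated, in the order adult, P-ERK1/2 Low, P-ERK1/2 High. The mean difference between the aged populations was 2.54, or 5.80-fold (two-sided exact permutation test, p = 0.029, which is as low as 4 against 4 samples allow, adjusted p = 0.057 over 6 pairs of genes). Between P-ERK1/2 Low and adult it was 0.79 (exact permutation p = 0.057, the smallest that 4 against 3 can give, adjusted p = 0.17). Single genes did not overlap for 49.4% of the panel between the aged populations and for 36.5% between P-ERK1/2 Low and adult. The share of all pairs of genes whose ratio separates the groups was not computed.

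Both chains of αvβ5 moved apart in the same way. The log2 ratio of Itgav to Itgb5 in P-ERK1/2 High was 0.75 in sample 2, 3.00 in sample 5, 0.42 in sample 7 and 1.75 in sample 8. The P-ERK1/2 Low ratio was -0.98 in sample 3, -0.97 in sample 6, -0.90 in sample 9 and -0.65 in sample 12. In adult microglia it was -1.50 in sample 1, -1.57 in sample 4 and -1.94 in sample 10. All 3 groups were again separated, and every P-ERK1/2 High sample had a ratio above those of all other kept samples. The difference between the aged populations was 2.35, or 5.11-fold (exact two-sided permutation test, p = 0.029, adjusted p = 0.057 over the 6 pairs). The probes of the genes may count with unequal efficiency, so the sign of a ratio does not say which chain was more abundant.

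The log2 ratio of Spp1 to Itgav did not separate the groups. It was 5.36 ± 0.71 (SD, n = 4) in P-ERK1/2 High, 5.18 ± 0.097 (SD, n = 4) in P-ERK1/2 Low and 5.19 ± 0.31 (SD, n = 3) in adult microglia. The difference between the aged populations was 0.18 (exact two-sided permutation test, p = 0.63), and it was -0.04 without P-ERK1/2 High sample 7. Within P-ERK1/2 High the ratio ran from 4.38 in sample 5, where Itgav was highest, to 6.02 in sample 7, where Spp1 was highest. The remaining 3 pairs contain Cd44, which was mostly below background, and no value is given for them.

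**Figure D4:**
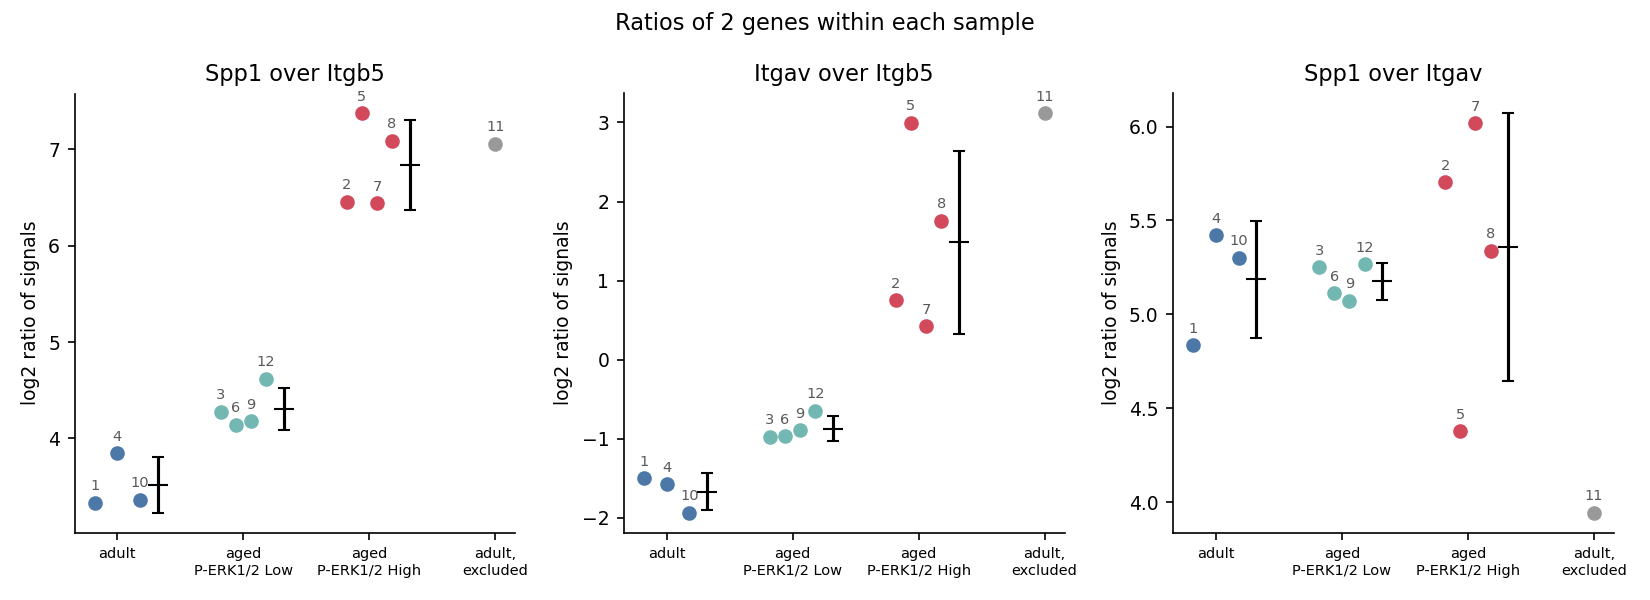
Log2 ratio of signals within each sample for Spp1 over Itgb5, Itgav over Itgb5 and Spp1 over Itgav, by group, with the mean and SD in black. In the first 2 panels the 3 groups do not overlap, and in the last panel they do.

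Sample 11, the adult sample labelled as excluded, stood with the P-ERK1/2 High samples and not with the other adult samples. Its signals were 87593 for Spp1, 5692 for Itgav and 657.8 for Itgb5, and its log2 ratio of Spp1 to Itgb5 was 7.06. Its positive control probes had a geometric mean of 286 counts, against 954 to 1460 in all other samples. With sample 11 added to the adult group, neither Spp1 (1.34), Itgav (0.86) nor Itgb5 (-1.10) was called in P-ERK1/2 High against adult, and 49 genes were called in place of 284. In P-ERK1/2 Low against adult the same addition moved Itgb5 to -0.53 (limma adjusted p = 0.61), Itgav to -0.92 and Spp1 to -0.62, none of them called.

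Of 4 further integrin chains on the panel, 1 rose and 1 fell, beside 28.2% and 9.61% of all genes, from the P-ERK1/2 Low to the P-ERK1/2 High population, and the median of the 4 was 0.00 against 0.26 over all genes. Itgam, the α chain of complement receptor 3 and a common marker of microglia, was 848 ± 56.3 (SD, n = 4) in P-ERK1/2 Low microglia and 1993 ± 441 (SD, n = 4) in P-ERK1/2 High microglia (log2 fold change 1.21, limma adjusted p = 0.00085), but was called in only 8 of 12 other settings. It was not called under median-of-ratios scaling (0.95), after quantile normalization (0.58) or when scaled to the sum (0.18), and stood at -0.02 with background subtracted and factors computed again. Itga6, a laminin-binding chain, was 936 ± 91.5 (SD, n = 4) in P-ERK1/2 Low microglia and 437 ± 140 (SD, n = 4) in P-ERK1/2 High microglia (-1.16, limma adjusted p = 0.0043), and was not called without P-ERK1/2 High sample 7 (-0.89). It turned to 0.82 under the positive controls alone. Itgax, which encodes CD11c, differed by -0.56 without a call, and by -0.78 to -0.27 with 1 sample left out at a time. Itga7, above background in only 2 of the 4 P-ERK1/2 Low samples, was not called either. Against adult microglia, P-ERK1/2 Low had called increases of Itga6 (1.11, limma adjusted p = 0.0023) and Itgax (1.41, limma adjusted p = 0.0029), where 8.05% of all genes were called higher. Itga7 stood at -0.95 in the same comparison and was not called. It was called without P-ERK1/2 Low sample 12 (-1.19) and in 6 of 13 other settings. Without that sample, only sample 9 of P-ERK1/2 Low was above background for Itga7, so the size of this fall is uncertain. Itga6 and Itgax were positive in all 13 other settings, with Itga6 called in 9, down to 0.29, and Itgax in 10, down to 0.60, each lowest under the positive controls alone.

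Of 6 other ligands of integrins or CD44, 1 was higher in the P-ERK1/2 High than in the P-ERK1/2 Low population and none lower, a share below the 28.2% of all genes called higher, with a median of 0.59 against 0.26 over all genes. Npnt, which encodes nephronectin, a matrix protein with an integrin-binding motif of the same kind, was 1534, 1989, 1417 and 1414 in the P-ERK1/2 High samples (2, 5, 7 and 8) and 162.6, 252.4, 203.3 and 168.2 in the P-ERK1/2 Low samples (3, 6, 9 and 12). The change was 3.02 (SE 0.23, limma adjusted p = 4.9e-06), larger than that of Spp1, and Npnt was called under all 12 other settings, from 1.99 to 4.98. In the adult samples it was 204.2, 230.6 and 257, which overlapped with P-ERK1/2 Low. Mfge8, which links phosphatidylserine to αv integrins, stood at -0.49, Tgfb1, whose latent form αv integrins activate, at -0.68, and Srgn, the proteoglycan core protein serglycin, at 0.61, none of them called. Fbln5 and Col6a3 were not called either, with Fbln5 above background in 3 of the 4 P-ERK1/2 Low samples and Col6a3 in none. Between P-ERK1/2 Low and adult microglia 0 of the 6 were called by limma, where 10.8% of all genes were called, and Mfge8 (0.64) and Tgfb1 (0.46) had an unadjusted p under 0.05.

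Of 4 proteases and modifiers, Mmp14 was called higher in the P-ERK1/2 High than in the P-ERK1/2 Low population and the other 3 were not called, beside 28.2% of all genes called higher, with a list median of 0.78 against 0.26. Mmp14, a membrane-bound metalloproteinase that cleaves CD44, was 584 ± 102 (SD, n = 4) in P-ERK1/2 Low microglia and 1419 ± 152 (SD, n = 4) in P-ERK1/2 High microglia (1.29, limma adjusted p = 0.00045). It was called in 9 of 12 other settings, but not when scaled to the sum (0.26), after quantile normalization (0.70) or with background subtracted and factors computed again (0.14). Mmp12, macrophage elastase, which cleaves osteopontin, was 54885, 94274, 8502 and 83267 in the P-ERK1/2 High samples (2, 5, 7 and 8) and 27424, 28632, 25861 and 33597 in the P-ERK1/2 Low samples (3, 6, 9 and 12). Sample 7, which had the highest Spp1, lay below all P-ERK1/2 Low samples for Mmp12, and the other 3 lay above them. The difference was 0.61 (SE 0.61, limma adjusted p = 0.42) with sample 7 and 1.39 (limma adjusted p = 0.00072) without it. In the adult samples Mmp12 was 2702, 5004 and 3027, and P-ERK1/2 Low was higher by 3.06 (limma adjusted p = 0.0002), with no overlap. Timp1, an inhibitor of metalloproteinases, was also called higher in P-ERK1/2 Low than in adult (1.18, limma adjusted p = 0.023), but not without adult sample 1, adult sample 10 (0.89) or P-ERK1/2 Low sample 12 (1.02). The Timp1 call stood in 7 of 13 other settings, and its lowest value was 0.37, under the positive controls alone. Tgm2, a transglutaminase that crosslinks osteopontin, stood at 0.96 between the aged populations, under the fold limit (limma adjusted p = 0.0077). It was called in 3 of 12 other settings and on leaving out P-ERK1/2 High sample 2 (1.07) or 8 (1.04) or P-ERK1/2 Low sample 3 (1.00) or 12 (1.02).

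Among 24 genes that signal below integrins and CD44, the P-ERK1/2 High population had 5 called higher than P-ERK1/2 Low microglia and 6 called lower, where 28.2% of all genes were called higher and 9.61% lower, with a median of -0.41 against 0.26 over all genes. The 5 were Msn (2.37), whose product moesin ties CD44 to actin, the kinase Akt1 (2.35), Dock1 (2.30), an activator of Rac that acts behind αvβ5 in engulfment, and the PI3-kinase catalytic subunits Pik3cg (1.71) and Pik3cb (1.26). Dock1 was called in all 12 other settings, Msn, Akt1 and Pik3cg in 11, with Pik3cg at 0.68 when scaled to the sum, and Pik3cb in 9, down to 0.11 with background subtracted and factors computed again. The 6 lower genes were Was (-1.72), an actin nucleation factor of blood cells, Akt2 (-1.29), the Rac exchange factor Vav1 (-1.25), the Rac effector kinase Pak1 (-1.20), the PI3-kinase regulatory subunit Pik3r1 (-1.11) and the Src family kinase Lyn (-1.08). The calls of Lyn, Pik3r1 and Vav1 were lost without P-ERK1/2 High sample 5, at -0.78, -0.96 and -0.93. Lyn was also lost without P-ERK1/2 High sample 7 (-1.04), P-ERK1/2 Low sample 6 (-0.98) or P-ERK1/2 Low sample 12 (-1.06). Under the positive controls alone all 6 turned positive, from 0.25 for Was to 0.90 for Lyn, and of 12 other settings Was was called in 11, Vav1 in 10, Akt2 and Pak1 in 9, and Lyn and Pik3r1 in 8. Syk, the tyrosine kinase of several microglial receptors, stood at -0.80 and Rac1 at 0.45 without a call. Between P-ERK1/2 Low and adult microglia, Was was called (1.11, limma adjusted p = 0.0024) and the other 23 were not, where 10.8% of all genes were called. The Was call stood in 10 of 13 other settings, with a lowest value of 0.30 under the positive controls alone.

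**Figure D5:**
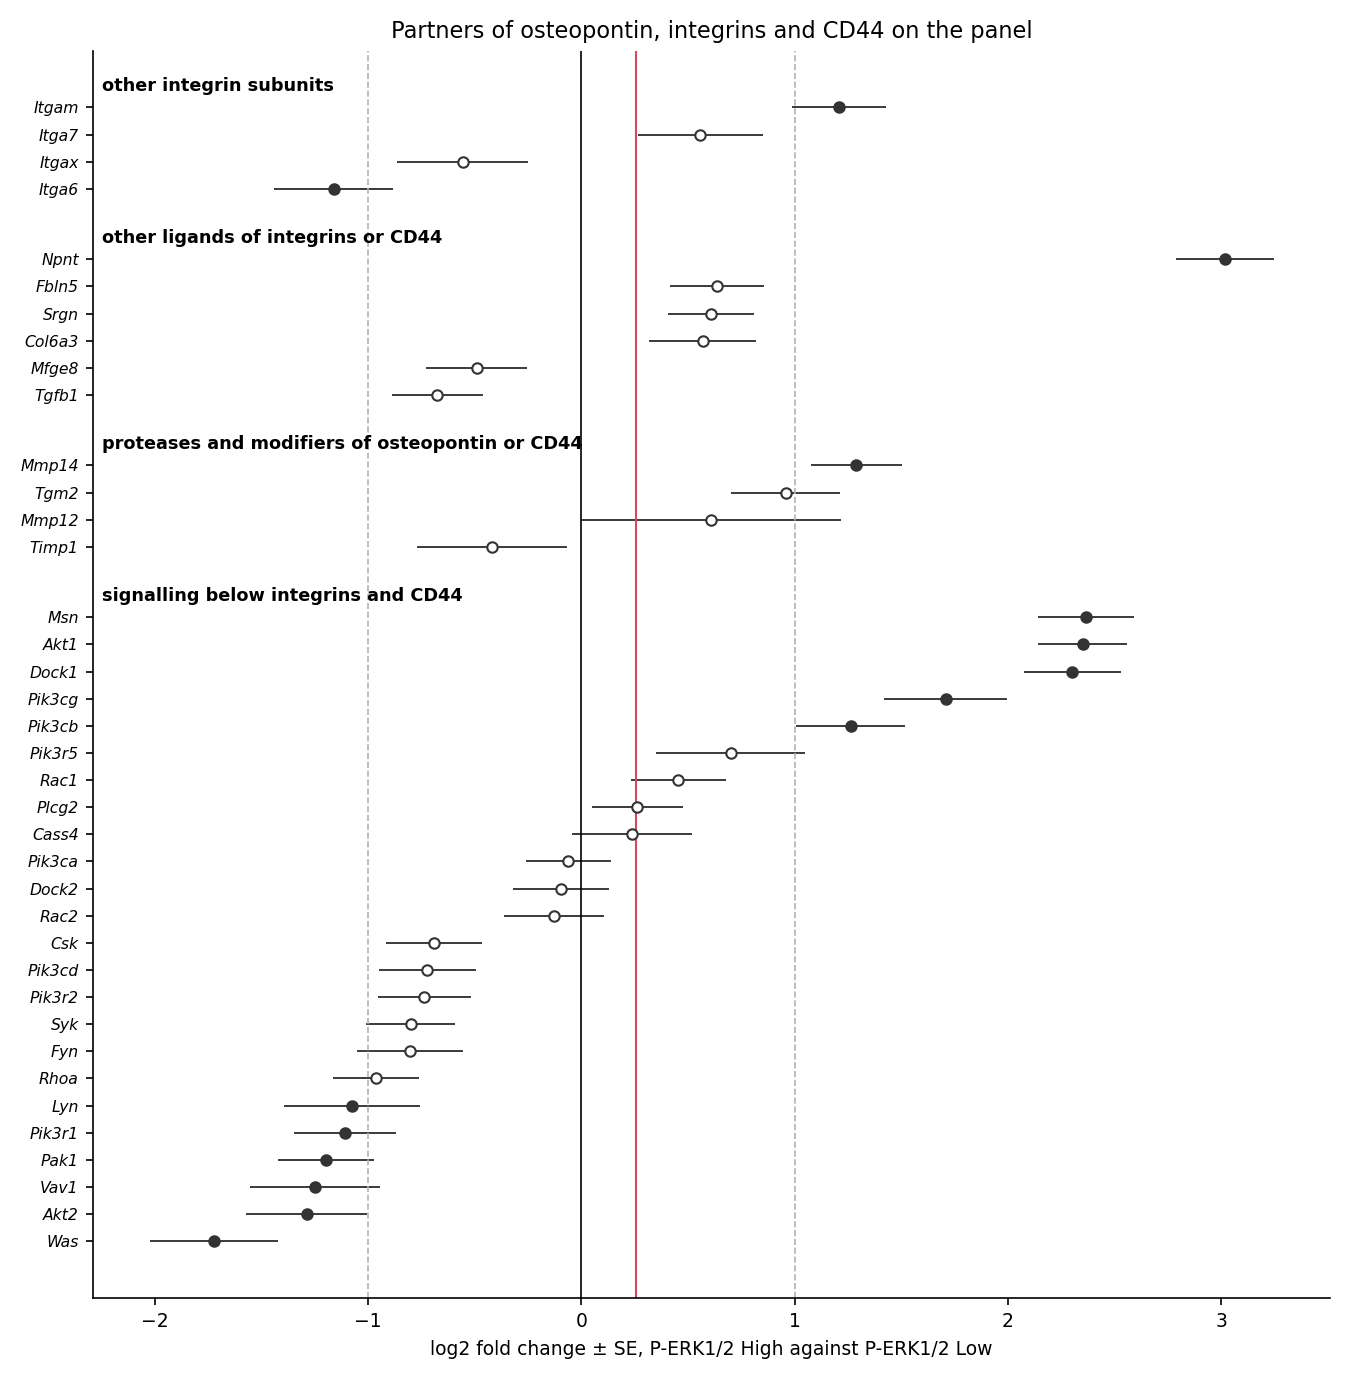
Log2 fold change with SE between the aged populations, P-ERK1/2 High over P-ERK1/2 Low, for the panel genes in 4 lists of partners of osteopontin, integrins and CD44. Filled points were called changed, the red line marks the median of all genes at 0.26 and dashed lines the fold limit. Npnt has the largest change at 3.02, and the signalling genes run from -1.72 for Was to 2.37 for Msn. Col6a3 and Cass4 stayed below background throughout P-ERK1/2 Low.

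Some markers of other cells also differed between the aged populations. The summed signal of 6 markers of border macrophages and monocytes, which can also make osteopontin, was 357 to 581 for the P-ERK1/2 High samples, 209 to 280 for the P-ERK1/2 Low samples and 214 to 343 for the adult samples, with Cd209e and Ms4a4a above background in none of them. Of these 6 markers, 5 remained below background throughout P-ERK1/2 Low and 4 throughout the adult group. The sum was 279 to 1071, 115 to 176 and 112 to 257 for 8 T and NK cell markers, in the same order, where all 8 stayed below background throughout P-ERK1/2 Low, 7 throughout the adult group and 2, Cd8a and Klrb1, throughout P-ERK1/2 High. For 6 endothelial markers it was 622 to 1257, 207 to 312 and 286 to 413, with 5 below background throughout P-ERK1/2 Low, 2 throughout the adult group and Tie1 in all 3 groups, and for 6 astrocyte markers 1231 to 1946, 575 to 808 and 445 to 663, with 4 below background throughout P-ERK1/2 Low, 2 throughout the adult group and Agt in all 3 groups. Between the aged populations 2 of the 6 macrophage and monocyte markers, 3 of the 8 T and NK cell markers, 4 of the 6 endothelial and 2 of the 6 astrocyte markers were called higher and none lower, and 4 of the 8 microglia markers were called higher as well, beside 28.2% of all genes called higher. Of the 8 neuronal markers 3 were called higher and 2, Tubb3 and Nefl, lower, and of the 8 oligodendrocyte markers 1, Cnp, was called lower, beside 9.61% of all genes called lower, and the 5 neutrophil and 3 B cell markers were not called. In P-ERK1/2 Low samples 7 of the neuronal, 7 of the oligodendrocyte, 3 of the neutrophil and all 3 B cell markers were above background in none. The sums for 8 neuronal markers were 281 to 494, 210 to 291 and 212 to 268 in the same order, for 5 neutrophil markers 202 to 550, 361 to 479 and 659 to 1011, for 3 B cell markers 40.6 to 75.8, 57.4 to 85.6 and 30.3 to 88.5, and for 8 oligodendrocyte markers 267 to 408, 320 to 452 and 312 to 492. Against adult microglia, 3 of the 8 microglia markers, Tmem119, Fcrls and Olfml3, were called lower in P-ERK1/2 Low, beside 2.73% of all genes. In P-ERK1/2 High against adult, Fcrls and Olfml3 were called lower and P2ry12 higher, beside 7.66% and 29.2% of all genes. The total counts were also higher in P-ERK1/2 High. The part of these differences in the results for Spp1, Itgav and Itgb5 was not tested.

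Over the 11 kept samples the pattern of Spp1 was most like those of Ccni (Pearson r = 0.987), Plxdc2 (r = 0.982) and Igf1r (r = 0.98) on the log2 scale, among genes with a mean signal of at least 50. For Itgav the genes were Hmgb1, Vps4b and Arid1a, each with r = 0.968. For Itgb5 they were Gadd45a (r = 0.979), Gna15 (r = 0.954) and Tmcc3 (r = 0.951). Gadd45a and Gna15 were called lower both in P-ERK1/2 Low and in P-ERK1/2 High against adult microglia, beside 2.73% and 7.66% of all genes. Both were picked for likeness to Itgb5, itself lower in both aged populations, so their calls add no support. For Cd44, whose values were mostly below background, the genes were Amigo2 (r = 0.911), Fgf13 (r = 0.888) and Kdm3a (r = 0.860). These correlations describe 3 groups of samples that share the scaling factor of each sample, and are given without a test.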

How the data were processed

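Transcripts of the sorted samples were counted by nCounter with the Neuroinflammation panel of NanoString, and the authors normalized the counts to housekeeping genes in nSolver, version not given in the sources used here. The deposited table holds this normalized signal for 757 endogenous and 13 housekeeping genes in 12 samples, with whole counts for 8 negative and 6 positive control probes. Within 0.1, 99.8% of the gene values were a whole count times 1 factor per sample, and counts were obtained by dividing by it. No background had been subtracted. Columns not mapped to a sample numbered 0. Of the gene names, 763 matched a RefSeq symbol and 7 a synonym.

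limma 3.58.1 (R 4.3.3) was fitted to log2(signal + 1) over all 770 genes for each pair of groups, with Benjamini-Hochberg adjustment, and was tested on simulated data. The added 1 shrinks the fold changes of weak genes. Ratios were compared by exact permutation in SciPy 1.17.1 (Python 3.11.15). Levels were not compared between genes, except that Spp1 was ranked and given as a share within the panel, which depends on how well each probe counts. The text names the 4 genes, 4 lists of related panel genes, cell markers, housekeeping genes and the 3 genes most correlated with each. Members and lists were chosen with earlier results of these data known, and 1 gene of the lists is not reported here. Other pseudocounts, filters, scalings, background subtraction and left-out samples were tried.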

Additional observations from a re-analysis of the deposited data

Results flagged for a closer look

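The adult sample labelled as excluded, number 11, enters none of the comparisons, and carried 3 signals above those of all adult samples that were kept. Its signal was 87593 for Spp1, against 21573 to 39408 in the kept adult samples, 5692 for Itgav, against 642 to 920, and 55.07 for Cd44, against 20.96 to 24.96. Cd44 was above background in this sample, with 71 counts over a background of 24.6. No cause was tested.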

How the results depend on the processing

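The values rest on 3 or 4 samples a group, on housekeeping scaling and on counts that were lower in P-ERK1/2 Low and adult samples, so weak genes such as Cd44 could not be compared, and a filter at a mean signal of 50 removed Cd44. The alternatives with positive controls and with background subtraction were chosen after seeing the data. No paired analysis was possible because each sample has a number of its own and the labels do not tie samples of different groups to the same mice. The planned count model (edgeR) was not run.

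Between the aged populations, scaling to the sum gave 0.94 for Spp1, 0.76 for Itgav and -1.60 for Itgb5. Background subtraction with factors computed again gave 0.59, 0.61 and -1.88. The positive controls alone turned Itgb5 to 1.42 and gave 659 calls. Quantile normalization, which by construction gives signals of the same rank the same value, turned Spp1 to -0.10. Spp1 ranked 2 or 3 in every aged sample. In P-ERK1/2 Low against adult, the positive controls gave -1.03 for Spp1, -1.01 for Itgav and -1.81 for Itgb5, all called, with 226 genes called. Background subtraction with factors computed again turned Spp1 to 0.40 and Itgav to 0.31, with 172 calls. Itgb5 passed the fold limit at -1.12 under median-of-ratios scaling, -1.39 when scaled to the sum, -1.36 after quantile normalization and -1.08 with background subtracted under the authors' factors. Adding the excluded adult sample left 34 calls and moved Itgb5 to -0.53. In P-ERK1/2 High against adult, Spp1 lost its call when scaled to the sum (0.34), with background subtracted and factors computed again (0.99) and with the excluded sample (1.34), and turned to -0.72 after quantile normalization. Itgav lost it at 0.17, 0.92, 0.86 and, after quantile normalization, 0.49. Itgb5 lost it at -0.39 under the positive controls and at -1.10 with the excluded sample, which left 49 calls. Where no construction is named, the cause was not tested.

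With a pseudocount of 20 the ratio differences were 2.52 for Spp1 over Itgb5 and 2.31 for Itgav over Itgb5. Leaving out 1 sample at a time gave, between the aged populations, 1.88 to 2.08 for Spp1, 1.46 to 2.00 for Itgav, -0.79 to -0.39 for Itgb5 and 235 to 310 calls. In P-ERK1/2 Low against adult it gave -0.39 to 0.0412 (without adult sample 4) for Spp1, -0.32 to -0.07 for Itgav, -1.09 to -0.91 for Itgb5 and 75 to 95 calls. In P-ERK1/2 High against adult it gave 1.57 to 2.01, 1.26 to 1.81, -1.79 to -1.39 and 225 to 303 calls. The ratio differences were 2.36 to 2.67 for Spp1 over Itgb5, 1.85 to 2.71 for Itgav over Itgb5 and -0.0361 (without P-ERK1/2 High sample 7) to 0.51 for Spp1 over Itgav. Of the 155 values in settings that left no sample out, 121 kept direction and side of the threshold, or moved little, 11 newly passed the threshold, 13 no longer passed it, 5 changed sign and 5 moved further. Several of these settings keep the deposited scale. The adjusted p limit, the mean filter, the fit over all groups and the other pseudocounts each left Spp1 at 1.97 between the aged populations. Such settings add little to the 121, or to the counts of other settings given for the listed genes.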
